A study of Mus musculus with 14 samples.

Results

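Retinal pigment epithelium (RPE) from mice that carried the Best1-Cre transgene with intact Clic4 was compared with RPE from mice that carried floxed Clic4 alleles without Cre. The first group, CreCtrl, had the genotype Best1-Cre+/- and holds 2 libraries. The second group, Ctrl, had the genotype Clic4f/f and also holds 2 libraries. These 4 libraries, of 14 in the series, were chosen by genotype alone, and no knockout library entered any value given here. All mice were male, 3 months old and on a C57BL/6J background, and each library came from the RPE of both eyes of 1 mouse. The 3 wild-type (WT) libraries of the series are given only as a further description. Every WT level is CPM, a count scaled to library size, over the 7 control libraries, while Ctrl and CreCtrl levels are CPM scaled over their own 4 libraries, so a WT value stands beside the others only roughly. Each control genotype belonged to a set of its own with its own knockout mice, so Cre, the floxed alleles and the set are confounded here and their effects cannot be told apart. The Cre transcript itself was not analysed here.

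The RPE is the pigmented epithelium between the photoreceptors and the choroid. It regenerates the visual chromophore, engulfs shed outer segment tips and moves ions, lactate and nutrients between the retina and the choroidal vessels. In Best1-Cre mice a BEST1 promoter drives Cre recombinase in RPE cells after birth. Cre is a phage enzyme that recombines loxP sites, and in some Cre lines it has been found to harm the cells that make it, which is why a Cre-only control accompanies a conditional knockout. The Ctrl libraries are the floxed, Cre-negative counterpart.

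The deposited counts summed to 14276129 and 28581114 in Ctrl replicates 1 and 2, and to 22251155 and 14116835 in CreCtrl replicates 1 and 2. On the log2 CPM scale the CreCtrl libraries correlated with each other at r = 0.962 across 16022 genes and the Ctrl libraries at r = 0.942, against 0.828 to 0.931 between groups. All 4 libraries held the RPE transcripts at high levels. The 20 RPE markers summed to 63599 and 65709 CPM in Ctrl and to 78897 and 66760 CPM in CreCtrl. Both Ctrl libraries stood apart from the others in a further respect, since they held abundant transcripts of corneal and other surface epithelium, as described below. Rod photoreceptor markers varied within each group, with a sum over 18 genes of 3133 and 1313 CPM in Ctrl and of 2002 and 6616 CPM in CreCtrl. In bulk RNA, fewer cells of a type and less RNA per cell cannot be told apart.

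Clic4, which encodes a chloride intracellular channel protein and carries the loxP sites of the Ctrl mice (ENSMUSG00000037242, chromosome 4 of GRCm38, 135213969 to 135272814), had 73.9 and 63.9 CPM in the Ctrl libraries. It had 91.0 and 113 CPM in the CreCtrl libraries. Both CreCtrl libraries lay above both Ctrl libraries. The log2 fold change of CreCtrl over Ctrl was 0.57 (standard error 0.23), and it did not pass the threshold (adjusted p = 0.380, edgeR's quasi-likelihood test). The 3 WT libraries had 253, 249 and 243 CPM, above all 4 of the others. They also differed in make-up. On the scale of the 7 control libraries their RPE markers summed to 23235 to 34364 CPM, against 66777 to 82250.5 CPM in the other 4. Their fibroblast markers summed to 11400 to 11927 CPM, against 2054 to 4459 CPM. The part of other cell types in the WT level of Clic4 was not tested. Among the other Clic genes, Clic1 had 60.2 and 105 CPM in Ctrl against 34.1 and 34.3 CPM in CreCtrl (log2 fold change -1.28, standard error 0.31, adjusted p = 0.184). Clic3, a member found in surface epithelia, had 3.27 and 27.1 CPM in Ctrl against 0.540 and 1.74 CPM in CreCtrl (adjusted p = 0.267). By edgeR none of the 5 Clic genes was called, with 1 higher and 2 lower at an unadjusted p under 0.05, and DESeq2 called 2 lower.

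By edgeR's quasi-likelihood test, 66 of the 16022 genes tested (0.412%) were higher and 2 genes (0.0125%) were lower in CreCtrl than in Ctrl. A gene was called at an adjusted p under 0.05 and a fold change above 1.5, and "called" refers to edgeR wherever DESeq2 is not named. At an unadjusted p under 0.05, 922 genes (5.75%) were higher and 1160 (7.24%) were lower. DESeq2 called 332 genes higher (2.07%) and 537 lower (3.35%). Both CreCtrl libraries lay above both Ctrl libraries for 25.3% of genes and below them for 24.4%. An exact two-sided permutation test of 2 mice against 2 cannot give a p below 0.333, so no such test is given for single genes. The number called depended on each library. It was 2199 without Ctrl replicate 1 and 370 without Ctrl replicate 2, against 33 without CreCtrl replicate 1 and 43 without CreCtrl replicate 2.

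The genes called higher in CreCtrl were mostly housekeeping genes that have near-identical copies elsewhere in the genome. Of the 66, 41 encode cytosolic ribosomal proteins, and others encode the glycolytic enzyme GAPDH, the actin Actg1, the prolyl isomerase Ppia and the growth-related protein Tpt1. To describe such copies, each gene's transcripts in GENCODE M21 were divided into 50-base words, the length of 1 read, and the share of these words that also occurs in the transcripts of a gene at another locus was taken. At least 5% of the words were shared for 65 of the 66 genes called higher (98.5%), but for only 9.47% of all genes tested. An annotated pseudogene held shared words of 62 of these 65 genes, and the median number of other loci was 12. The measure uses the reference alone and was added after the calls had been seen.

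The following coding stretches of called genes are examples of shared words. For each gene, the word within 1 coding exon that occurs at the most other loci was picked. The stretches do not describe the whole gene. Of all words, 27.4% were shared for Rpl38, 24.7% for Gapdh and 34.7% for Gpx4. Capitals mark a 50-base word that is found unchanged in transcripts from other loci, and the lower-case letters are the 10 flanking bases on each side of it (GENCODE M21, GRCm38).
Rpl38: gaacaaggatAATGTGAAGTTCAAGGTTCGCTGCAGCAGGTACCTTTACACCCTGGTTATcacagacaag
Gapdh: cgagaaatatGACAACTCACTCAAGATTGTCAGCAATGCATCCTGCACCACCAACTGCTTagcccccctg
Gpx4: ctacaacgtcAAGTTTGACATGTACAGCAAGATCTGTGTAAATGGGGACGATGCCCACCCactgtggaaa
The word of Rpl38 lies at chr11:114671760-114671809 on the plus strand and occurs at 4 other loci. The word of Gapdh lies at chr6:125162898-125162947 on the minus strand and occurs at 83 other loci. The word of Gpx4 lies at chr10:80055019-80055068 on the plus strand and occurs at 2 other loci. A read that falls within such a word cannot be placed at 1 locus by its own sequence.

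Fold changes moved with the share of such words. Among the 9374 genes with no shared word the median log2 fold change was -0.03 and no gene was called, although 302 were higher and 764 lower at an unadjusted p under 0.05. Among the 5089 genes with up to 5% of shared words it was -0.05, and Slc15a2, Krt17 and Ces1d were called. From 5% to 25% the median was 0.36 over 1026 genes, with 35 called higher. It was 1.05 over 273 genes at 25% to 50%, 1.17 over 110 genes at 50% to 75%, and 2.05 over 108 genes at 75% to 100%. In the last of these classes 54.6% of genes were higher and none was lower at an unadjusted p under 0.05. All 65 genes called with at least 5% of shared words were higher in CreCtrl.

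**Figure D1:**
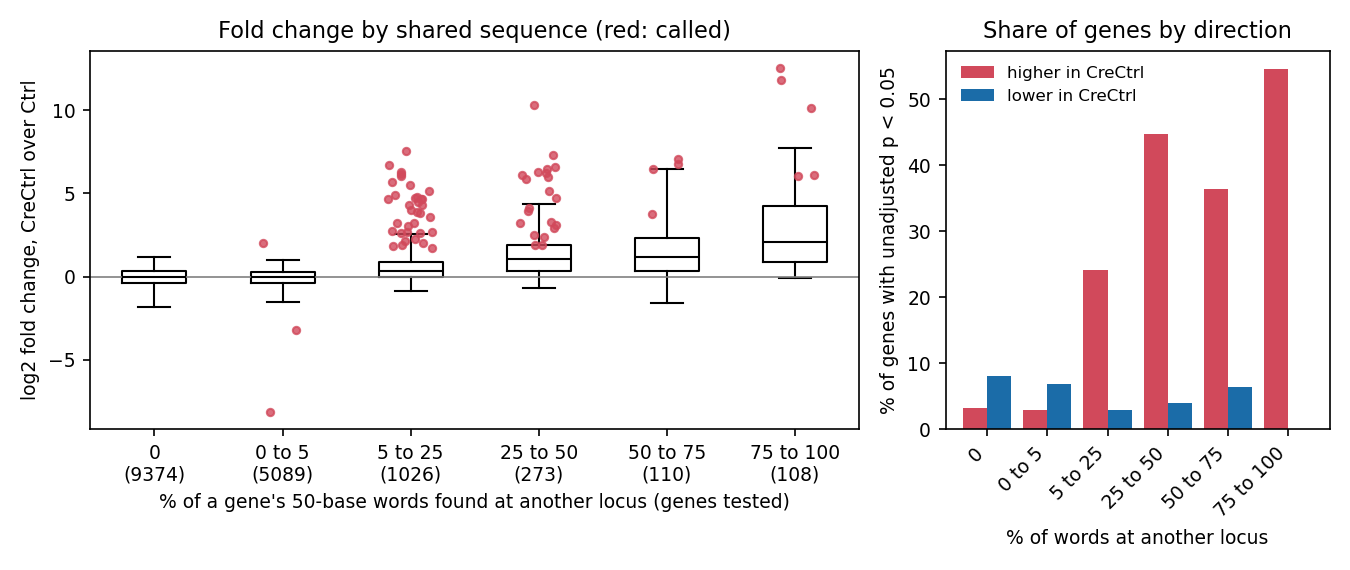
Left: log2 fold change of CreCtrl over Ctrl for the genes tested, in classes of the percentage of a gene's 50-base words found at another locus. Boxes show the quartiles, whiskers the 5th and 95th percentiles, and red points the called genes. Right: percentage of genes of each class with an unadjusted p under 0.05 (edgeR), higher or lower in CreCtrl. The median rises from -0.03 in genes without shared words to 2.05 in the class above 75%.

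Rpl38, a protein of the large ribosomal subunit, had 0.0681 and 0.0383 CPM in Ctrl, which is 1 count in each library, and 75.4 and 65.9 CPM in CreCtrl. The ratio of the pooled levels was 1460 with an exact 95% counting interval from 404 to 12070. The WT libraries had 92.8, 95.8 and 93.4 CPM. The CreCtrl libraries thus lay near the WT libraries, and the Ctrl libraries had almost no counts for this transcript.

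Fau, which encodes a ubiquitin-like protein fused to ribosomal protein S30, had 0.681 and 0.957 CPM in Ctrl against 131 and 135 CPM in CreCtrl (log2 fold change 7.30, standard error 0.30, adjusted p = 0.00205 by edgeR). Rps29, of the small subunit, had 0.545 and 0.383 CPM in Ctrl against 90.6 and 77.8 CPM in CreCtrl. Gapdh had 10.97 and 6.39 CPM in Ctrl against 705 and 556 CPM in CreCtrl (log2 fold change 6.19, standard error 0.41, adjusted p = 0.00557). These genes showed the same order in every library, with no overlap between groups. The other 7 of the 10 genes with the lowest p (Rps7, Rps16, Rps25, Rpl36, Rps27a, Rps12 and Rpl21) encode ribosomal proteins, Rps27a as a fusion with ubiquitin, and had log2 fold changes from 4.90 to 6.71. For all 66 genes called higher, all 3 WT libraries lay above both Ctrl libraries.

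**Figure D2:**
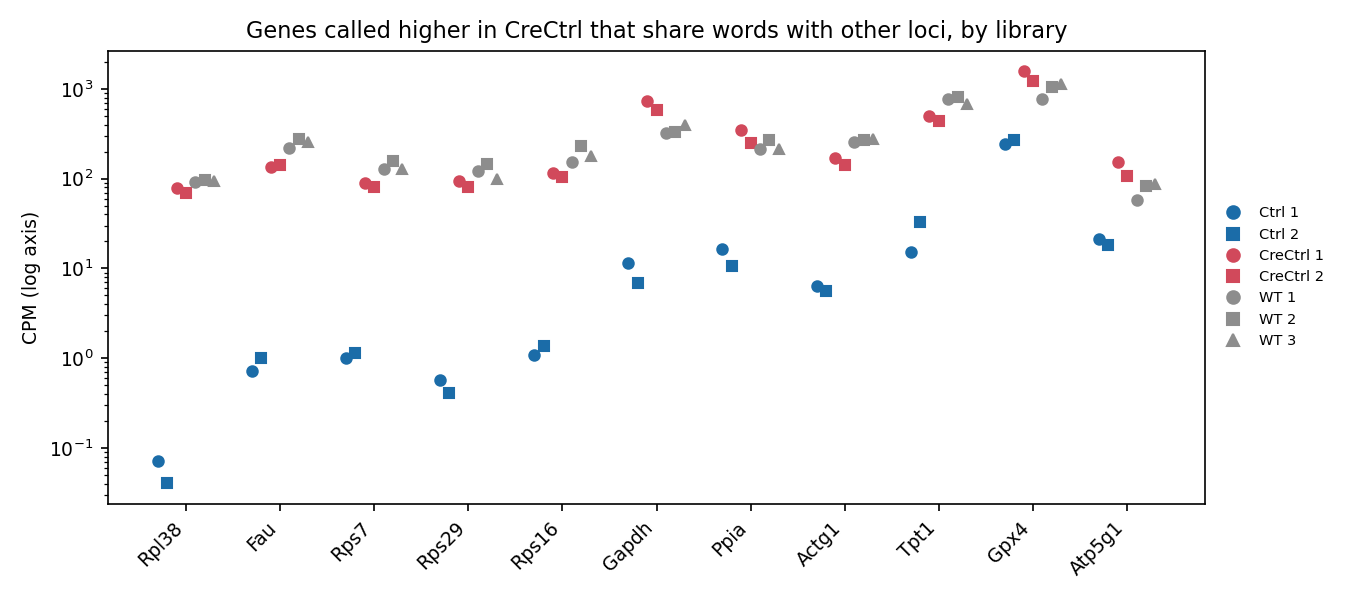
CPM (log axis, scaled over the 7 control libraries) of 11 genes called higher in CreCtrl that share at least 5% of their words with other loci; each point is 1 library. Both Ctrl libraries lie below the CreCtrl and WT libraries for each gene, for Rpl38 under 0.1 CPM.

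The genes that share these words did not, as a rule, show the opposite difference. For Gapdh, the genes that share its words summed to 111.8 and 133 CPM in Ctrl and to 114.7 and 119 CPM in CreCtrl, a difference much smaller than that of Gapdh itself. For Rpl38 they summed to 0 and 0.153 CPM in Ctrl against 1.89 and 2.07 CPM in CreCtrl. Over the 65 genes, the sharing genes summed higher in both CreCtrl than in both Ctrl libraries for 35 and lower for 8. These sums take any gene at another locus that shares a word, so they do not describe copies alone. Atp5l, for example, shared words with 641 genes, of which 19 are annotated pseudogenes. A related pattern was seen for 3 nuclear genes whose words are those of the mitochondrial genome. Gm28661, all of whose words occur in mt-Co2, which encodes cytochrome c oxidase subunit 2, had 2 counts in Ctrl replicate 1, 0 in Ctrl replicate 2, and 147 and 526 CPM in CreCtrl. Gm28439 (words of mt-Nd4) and Gm10925 (words of mt-Atp6) were likewise called. The 13 genes encoded on the mitochondrial chromosome are absent from the deposited counts, so they could not be compared. How the counting treated reads that fit several loci is not given in the sources used here, so the counts of genes with copies are uncertain, and whether that treatment differed between the sets was not tested.

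The gene lists that hold many such genes showed the same dependence. The ribosomal list holds 45 of the cytosolic ribosomal proteins, not all of them. Its median log2 fold change was 1.89, with 20 called higher and 39 higher at an unadjusted p under 0.05. Among all genes tested, 41 of those called higher encode such proteins. Only 5 of the 45 had under 5% of shared words, and the median of these 5 was -0.16. Of the 74 subunits of the oxidative phosphorylation complexes, 2 were called higher, Atp5g1 (20.4 and 17.1 CPM in Ctrl against 146 and 102 CPM in CreCtrl, adjusted p = 0.0266) and Atp5l (0.545 and 0.306 against 13.3 and 8.75 CPM, adjusted p = 0.0447), both subunits of ATP synthase. The median of this list was 0.37 over all members and 0.24 over the 56 with few shared words. With a library left out, the median over all members ran from 0.16 (without CreCtrl replicate 1) to 0.60 (without Ctrl replicate 1). Of the 56, 6 were higher and 0 lower at an unadjusted p under 0.05. Among all 14463 genes with few shared words, 448 were higher. In glycolysis, Gapdh was the only one of 20 members called by edgeR, DESeq2 called 4 higher, and the median was 0.01 over all members and -0.23 over those with few shared words. Gpx4, the peroxidase that removes lipid hydroperoxides, was the only member of 30 antioxidant and glutathione genes called by edgeR, at 229 and 250 CPM in Ctrl against 1502 and 1170 CPM in CreCtrl (adjusted p = 0.0423); it shares 34.7% of its words. DESeq2 called 2 members of that list higher and 1 lower. Ftl1, the ferritin light chain, which shares 48.2%, had 123 and 187 CPM in Ctrl against 870 and 972 CPM in CreCtrl, just outside the threshold (adjusted p = 0.0511).

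With the genes above 5% left out and the rest fitted again, edgeR called 0 of 14463 genes, at a lowest adjusted p of 0.261, with 1529 at an unadjusted p under 0.05. DESeq2 called 71 genes higher and 513 lower among the genes with under 5% of shared words. The gene lists below hold members of any share, while the rest of this paragraph concerns the genes with under 5%. At an unadjusted p under 0.05 in the fit of all genes, 448 of them were higher and 1110 lower in CreCtrl. Among the lower genes, 530 (47.7%) had at least 2 times the CPM in Ctrl replicate 2 as in Ctrl replicate 1, against 8.14% of all genes with few shared words. Much of the lower side therefore consisted of genes that also differed between the 2 Ctrl mice.

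Krt17, a keratin of surface and glandular epithelia, was 1 of the 2 genes called lower. It had 46.1 and 74.6 CPM in Ctrl, 0.360 CPM in CreCtrl replicate 1 and 0 counts in CreCtrl replicate 2 (log2 fold change -8.14, standard error 0.80, adjusted p = 0.0248). It was not called in the fit of all 7 control libraries (adjusted p = 0.128 by edgeR). It belongs to a wider group. Krt12, the keratin that defines corneal epithelium, had 262 and 4087 CPM in Ctrl against 0.315 and 0.401 CPM in CreCtrl (log2 fold change -12.57, standard error 1.79, adjusted p = 0.0780). Of its exon bases, 54.4% lie opposite an antisense gene, A830036E02Rik, and whether the counting used strand is not given in the sources used here. The 8 surface epithelium markers summed to 2143 and 11938 CPM in Ctrl against 41.1 and 0.468 CPM in CreCtrl. Krt5 and Krt14 share 8.52% and 13.9% of their words with other loci. All 8 were lower at an unadjusted p under 0.05, where 7.24% of all genes were; edgeR called none and DESeq2 called 3 lower. In CreCtrl replicate 2, Krt5, Krt14, Krt13, Krt15, Trp63 and Epcam were all at 0 counts, whereas no marker was at 0 in either Ctrl library. WT replicate 2 had 1227 CPM of these markers and the other 2 WT libraries had 35.0 and 12.5 CPM.

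Further genes of barrier epithelia followed the same order. Cldn4, a tight junction claudin, had 67.0 and 583 CPM in Ctrl against 0.270 CPM and 0 counts in CreCtrl (adjusted p = 0.0817). Trp63, the transcription factor of basal epithelial cells, had 12.1 and 78.1 CPM against 0.180 CPM and 0 counts. Cdh1, or E-cadherin, had 25.2 and 202 CPM against 2.56 and 4.88 CPM (adjusted p = 0.148). In each case Ctrl replicate 2 was the highest library and both Ctrl libraries were above both CreCtrl libraries. Fxyd3, an epithelial regulator of the sodium pump, and BC100530 and 4833423E24Rik were also among the 10 genes with the lowest p on the lower side. Fxyd3 had 11.04 and 36.0 CPM against 0.540 and 0.468 CPM, and 42.5% of its exon bases overlap Lgi4 on the other strand. BC100530 shares 25.1% of its words with other loci. For 4833423E24Rik the ratio of Ctrl over CreCtrl was 304 with an exact 95% counting interval from 54.1 to 12030, since the CreCtrl libraries held 1 count together.

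Other cell types of the front of the eye showed a smaller difference. The 8 markers of ciliary and iris epithelium summed to 341 and 540 CPM in Ctrl and to 187 and 122 CPM in CreCtrl. Of the 7 tested, 4 were lower at an unadjusted p under 0.05 (7.24% of all genes), edgeR called none and DESeq2 called 3 lower. Pax6, the eye field transcription factor that persists in ciliary and iris epithelium, had 122 and 197 CPM in Ctrl against 36.2 and 8.75 CPM in CreCtrl (log2 fold change -2.82, standard error 0.68, adjusted p = 0.180). Rab27b, a GTPase of secretory vesicles, had 27.7 and 49.0 CPM against 7.38 and 5.68 CPM (adjusted p = 0.0823), and Otx1, a homeobox factor, had 38.2 and 47.0 CPM against 10.2 and 4.14 CPM (adjusted p = 0.124). These 3 genes did not overlap between groups, and all 3 WT libraries lay below both Ctrl libraries for each. For the whole list, scaled over the 7 control libraries, the WT sums were 326, 355 and 262 CPM. These lay below both Ctrl and above both CreCtrl libraries. The part of such tissue in the other results was not tested.

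**Figure D3:**
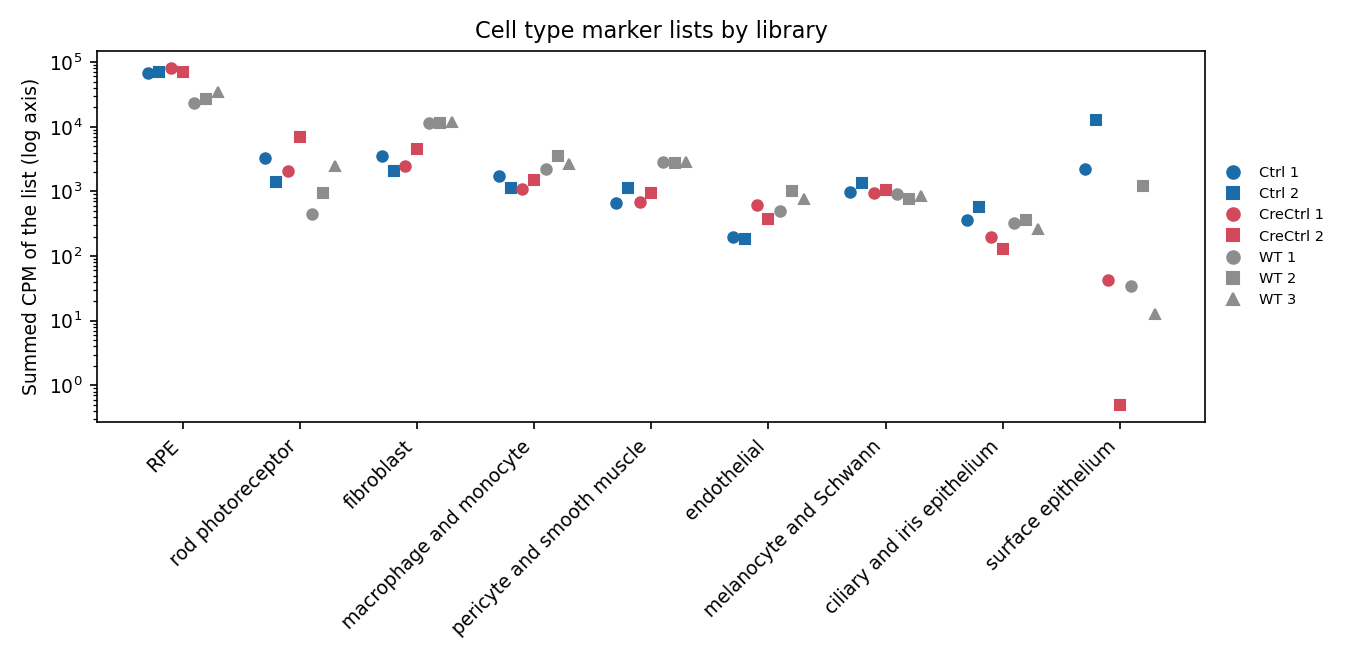
Summed CPM (log axis, scaled over the 7 control libraries) of 9 cell type marker lists; each point is 1 library. RPE markers are highest in every library. Surface epithelium markers are above 2000 CPM in both Ctrl libraries and below 50 CPM in both CreCtrl libraries, and endothelial markers are higher in both CreCtrl than in both Ctrl libraries.

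Endothelial transcripts had the opposite order. The 12 markers summed to 187 and 171 CPM in Ctrl and to 597 and 364 CPM in CreCtrl. Of these 12, 7 were higher at an unadjusted p under 0.05 (5.75% of all genes), 0 were lower, edgeR called none and DESeq2 called 3 higher. Both CreCtrl libraries lay above both Ctrl libraries for 9, against 25.3% of all genes. Vwf, the von Willebrand factor of endothelial cells, had 9.06 and 21.1 CPM in Ctrl against 193 and 115.2 CPM in CreCtrl (log2 fold change 3.34, standard error 0.50, adjusted p = 0.0851). Pecam1, an endothelial junction protein, had 5.38 and 7.39 CPM against 29.02 and 20.8 CPM (adjusted p = 0.117), and Eng, the coreceptor endoglin, had 31.95 and 25.3 CPM against 69.0 and 57.4 CPM (adjusted p = 0.143). Kdr, the receptor of vascular growth factor, did overlap, with 27.8 and 14.7 CPM in Ctrl and 40.6 and 12.9 CPM in CreCtrl. Without CreCtrl replicate 1 the list's median log2 fold change was 0.61, against 1.13 with it.

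Among the remaining cell type lists, several medians changed sign when a single library was left out. The 14 fibroblast markers had a median log2 fold change of 0.61, and it was -0.02 without CreCtrl replicate 2. Within that list Mgp, a matrix calcification inhibitor, and Dpt, or dermatopontin, were higher in CreCtrl at an unadjusted p under 0.05, and Fbln1 was lower. The 18 rod markers had a median of 1.28, which was -0.13 without CreCtrl replicate 2. The medians were 1.29 for 8 cone markers, -0.41 for 15 macrophage and monocyte markers, -0.16 for 10 pericyte and smooth muscle markers, -0.95 for 11 melanocyte and Schwann markers and -0.71 for 14 markers of other retinal neurons and glia. The last of these stayed between -1.06 and -0.57 whichever library was left out, and that of melanocyte and Schwann markers was -0.02 without Ctrl replicate 2. The macrophage and monocyte median was 0.29 without Ctrl replicate 1. The pericyte and smooth muscle median was 0.45 without Ctrl replicate 2, and the cone median 0.09 without CreCtrl replicate 2. Erythrocyte markers had a median of 0.97, which was -0.99 without CreCtrl replicate 2. Of these 5 markers, 4 share at least 5% of their words. Those of mast cells, lens and skeletal muscle, of which only 2 or 3 genes each were tested, had 0.55, -0.20 and 0.21. Each of the last medians changed sign in at least 1 fit with a library left out. By edgeR no member of these lists was called, while DESeq2 called 2 fibroblast markers higher and 1 lower, and 1 marker lower in each of the melanocyte and Schwann list and the list of other retinal neurons and glia.

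Ces1d, a carboxylesterase, was the other gene called lower. It had 19.8 and 33.4 CPM in Ctrl against 2.65 and 3.01 CPM in CreCtrl (log2 fold change -3.24, standard error 0.39, adjusted p = 0.0464), and 10.6, 14.1 and 13.5 CPM in WT. All 3 WT libraries lay between the groups. Ces1d lost its call with RLE scaling (adjusted p = 0.0504 by edgeR) and with a replicate block (0.0653). It also lost it in the fit of genes with under 5% of shared words (0.2605). Nor was it called when either CreCtrl replicate was left out, at log2 fold changes of -3.15 and -3.33.

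The other lower genes with the lowest p did not pass the threshold. Cadm1, a cell adhesion molecule of the immunoglobulin family, had 69.4 and 72.9 CPM against 16.3 and 22.8 CPM (adjusted p = 0.0645). Atp6v0d2, a subunit of the vacuolar proton pump, had 25.5 and 22.97 CPM against 5.67 and 6.08 CPM (adjusted p = 0.0703). In these 2 genes the 2 mice of each group were close together and the groups were far apart. Vkorc1, the vitamin K epoxide reductase, had 10.97 and 14.7 CPM in Ctrl against 1.71 and 1.80 CPM in CreCtrl, and 47.7% of its exon bases overlap Gm21974. Pcp4, a calmodulin regulator, had 12.3 and 9.19 CPM against 0.180 CPM and 0 counts, and had 0 counts in all 3 WT libraries. Of its exon bases, 23.7% overlap Igsf5. Unlike the epithelial genes, Pcp4 was not higher in Ctrl replicate 2 than in replicate 1. Gpha2, a subunit of a glycoprotein hormone, had 11.9 and 16.1 CPM against 0.180 and 0.735 CPM (adjusted p = 0.0747).

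Slc15a2, which encodes the peptide transporter PEPT2, was the only gene with under 5% of shared words that edgeR called higher, where DESeq2 called 71. It had 15.1 and 12.8 CPM in Ctrl against 53.6 and 59.8 CPM in CreCtrl (log2 fold change 2.02, standard error 0.23, adjusted p = 0.0385), and 30.05, 19.4 and 29.4 CPM in WT, again between the groups. It lost its call without CreCtrl replicate 1 (adjusted p = 0.213 by edgeR) and without CreCtrl replicate 2 (0.245). The genes next to it by p were picked by the same order of p after the values had been seen. Rab37, a GTPase of secretory granules, had 41.9 and 42.1 CPM in Ctrl against 101 and 114 CPM in CreCtrl (adjusted p = 0.0887). Tm4sf1, a membrane protein abundant in endothelium, had 15.1 and 11.1 CPM against 37.4 and 44.7 CPM (adjusted p = 0.104). Rilp, an effector of the lysosomal GTPase Rab7, had 24.6 and 23.2 CPM against 50.0 and 54.3 CPM (adjusted p = 0.128). For Rab37 the WT levels of 31.4 to 58.3 CPM were near those of Ctrl, and for Tm4sf1 the WT levels of 79.6 to 95.03 CPM were above both groups.

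**Figure D4:**
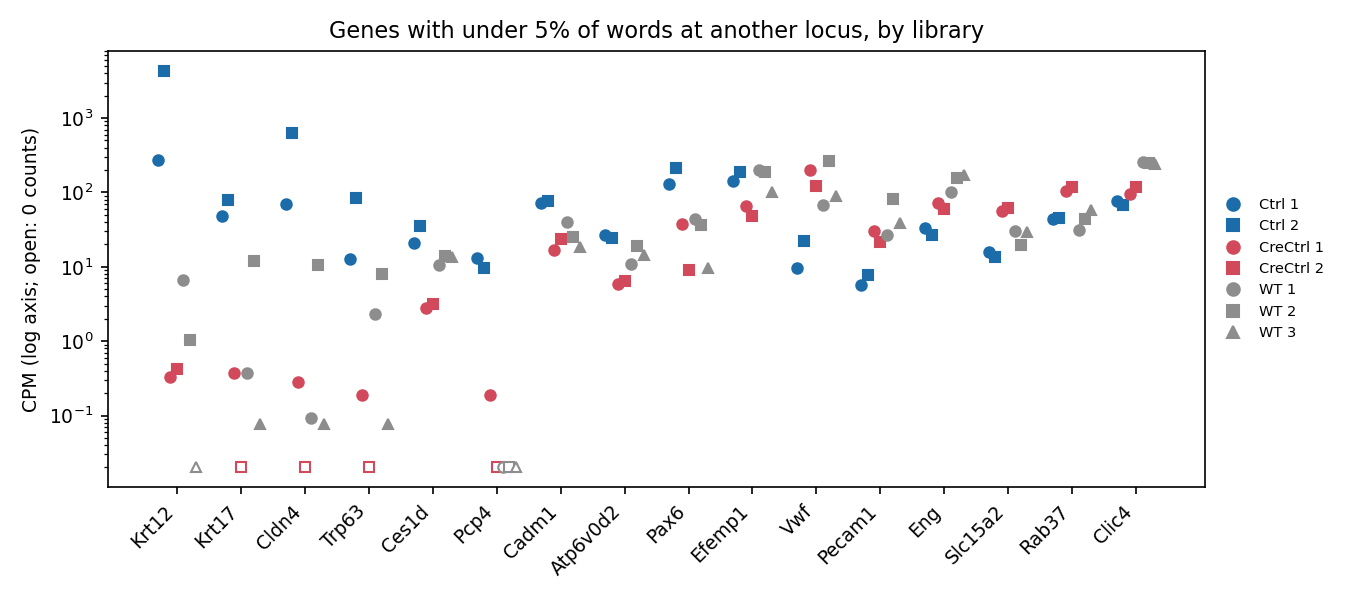
CPM (log axis, scaled over the 7 control libraries) of 16 genes with under 5% of shared words; each point is 1 library, and open symbols at the bottom mark 0 counts. Epithelial genes on the left are high in Ctrl and near 0 in CreCtrl, and Vwf, Pecam1, Eng, Slc15a2 and Rab37 are higher in both CreCtrl than in both Ctrl libraries.

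The 20 RPE markers had a median log2 fold change of -0.08, with 1 higher and 1 lower at an unadjusted p under 0.05. By edgeR none was called, and DESeq2 called 1 higher. Rpe65, the isomerase of the visual cycle, had 3160 and 3570 CPM in Ctrl against 4672 and 3413 CPM in CreCtrl (log2 fold change 0.26, standard error 0.35). Best1, whose promoter drives Cre in the transgene, had 3.07 and 1.23 CPM in Ctrl against 2.74 and 3.41 CPM in CreCtrl (adjusted p = 0.713). Both genes overlapped between groups. Of 17 visual cycle and retinoid genes, 3 were lower and 0 higher at an unadjusted p under 0.05 (7.24% and 5.75% of all genes). EdgeR called 0 and DESeq2 called 2 lower (3.35% of all genes). Their median of -0.13 was 0.02 without Ctrl replicate 2 and 0.07 without CreCtrl replicate 2. The 2 with the lowest p, Aldh1a1 (64.4 and 45.3 CPM in Ctrl against 20.2 and 11.5 CPM in CreCtrl, adjusted p = 0.139) and Aldh1a3 (adjusted p = 0.207), are retinaldehyde dehydrogenases, enzymes that make retinoic acid.

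By edgeR none of the 20 melanin and melanosome genes was called and DESeq2 called 1 lower. At an unadjusted p under 0.05, 2 were lower, where 7.24% of all genes were. Their median was -0.38, which was -0.06 without Ctrl replicate 2 and -0.67 without Ctrl replicate 1. The lowest p belonged to Rab38, a GTPase of melanosome formation (18.6 and 30.6 CPM in Ctrl against 11.5 and 6.95 CPM in CreCtrl), and to Mlana. Of 18 RPE identity transcription factors, 5 were lower at an unadjusted p under 0.05 (7.24% of all genes). EdgeR called none and DESeq2 called 3 lower (3.35% of all genes). The 5 included Pax6 and Otx1, which are also in the list of ciliary and iris markers, and the part of that tissue was not tested. The median of the 18 was -0.31, which was -0.17 without Ctrl replicate 2. The members with the lowest p were Foxq1, a forkhead factor with 66.1% of its exon bases opposite another gene, and Otx1, already described among the ciliary and iris markers, whereas Otx2 (838 and 911 CPM against 970 and 852 CPM) and Mitf (159 and 153 CPM against 152 and 171 CPM) overlapped between groups. Outer segment phagocytosis had a median of -0.18 over 20 genes, which was -0.02 without Ctrl replicate 2, and neither tool called a member. Its members Mfge8, the bridge between integrins and outer segments (69.7 and 70.7 CPM against 51.5 and 50.2 CPM), and Slc9a3r1, a scaffold of apical microvilli (541 and 572 CPM against 1003 and 766 CPM), had adjusted p of 0.398 and 0.385. RPE ion and lactate transport had a median of -0.03 over 32 genes, with 0 called by edgeR and 1 called lower by DESeq2. Best2 and Kcnq5, which had the lowest p there, are a bestrophin channel (35.4 and 12.6 CPM against 6.61 and 0.935 CPM) and a potassium channel.

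By edgeR none of the listed genes of the response to damaged DNA was called. Of 30 p53 targets and DNA damage response genes, 0 were higher and 4 were lower at an unadjusted p under 0.05 (7.24% of all genes). DESeq2 called 1 lower. The median was -0.07, which was 0.08 without Ctrl replicate 2 and 0.09 without CreCtrl replicate 2. Perp, a p53 target that also builds epithelial desmosomes, had 348 and 965 CPM in Ctrl against 238 and 167 CPM in CreCtrl (adjusted p = 0.278). Gadd45b, a stress-induced growth arrest gene, had 70.6 and 81.8 CPM against 47.6 and 45.9 CPM (adjusted p = 0.254). Of 27 DNA repair and damage signalling genes neither tool called any, 1 was lower at an unadjusted p under 0.05, and the median was -0.24, which was 0.06 without Ctrl replicate 2. There the lowest p were those of Top2a, a topoisomerase of dividing cells (5.38 and 21.6 CPM against 1.93 and 4.61 CPM), and Lig1, a DNA ligase. Among 30 cell death genes the median was -0.08, 1 was higher and 2 were lower at an unadjusted p under 0.05, edgeR called none and DESeq2 called 1 lower, with Bnip3, a mitophagy receptor with 36.9% of shared words, and Pycard, an inflammasome adaptor, at the lowest p.

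The stress and immune lists likewise held no gene called by edgeR. DESeq2 called 2 heat shock genes higher and 2 lower and 2 inflammatory genes lower, and none in the other 4 lists. The 32 interferon response and DNA sensing genes had a median of -0.28, with 0 higher and 3 lower at an unadjusted p under 0.05. Oas2, an interferon-induced RNA sensor, had 6.20 and 18.4 CPM in Ctrl against 2.07 and 4.21 CPM in CreCtrl (adjusted p = 0.318). Ifi44, also interferon-induced, had an adjusted p of 0.357. The unfolded protein response had a median of -0.39 over 26 genes (Dnajc3 and Hsp90b1, both chaperones of the endoplasmic reticulum, at the lowest p), and it was -0.01 without Ctrl replicate 2. Heat shock proteins had a median of -0.19 over 22 genes, with 5 higher and 3 lower at an unadjusted p under 0.05 (5.75% and 7.24% of all genes). Over the 13 with under 5% of shared words the median was -0.29, with 0 higher and 2 lower. The 2 with the lowest p, the chaperonin cofactor Hspe1 and Hsp90aa1, share 18.4% and 47.5% of their words with other loci. Complement had a median of -0.02 over 18 genes, and its members C1ra and C1s1, proteases of the first component, share 50.8% and 21.8%. Antigen presentation had a median of -0.18 over 18 genes (Psmb8, an immunoproteasome subunit, and Tapbp, or tapasin, at the lowest p). Inflammatory cytokines and NF-kB had a median of -0.11 over 25 genes. Within it Lif, a cytokine of the interleukin 6 family, had 11.6 and 13.9 CPM against 3.73 and 4.41 CPM (adjusted p = 0.150), and Ccl3, a macrophage chemokine, had 13.8 and 11.4 CPM against 3.60 and 5.55 CPM.

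The lowest median of a process list, -0.80, was that of 24 immediate-early and tissue handling genes. Of these, 10 were lower and 0 higher at an unadjusted p under 0.05, where 7.24% of all genes were lower, and edgeR called none while DESeq2 called 2 lower. Both CreCtrl libraries lay below both Ctrl libraries for 16, against 24.4% of all genes. Jund, a subunit of the AP-1 factor, had 494 and 710 CPM in Ctrl against 325 and 312 CPM in CreCtrl (adjusted p = 0.276), though 52.6% of its exon bases overlap a gene on the other strand. Dusp1, a phosphatase that ends MAP kinase signals, had 366 and 568 CPM against 216 and 275 CPM (adjusted p = 0.320). The WT levels of both genes were above those of Ctrl. Without Ctrl replicate 2 the median was -0.28.

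Sterol and fatty acid synthesis had a median of -0.61 over 33 genes. Of these, 6 were lower and 0 higher at an unadjusted p under 0.05, where 7.24% of all genes were lower. EdgeR called 0 and DESeq2 called 2 lower. Both CreCtrl libraries lay below both Ctrl libraries for 20, against 24.4% of all genes. The median was -0.23 without Ctrl replicate 2 and -0.995 without Ctrl replicate 1. Fdps, or farnesyl diphosphate synthase, had 3.07 and 8.997 CPM in Ctrl against 1.44 and 0.668 CPM in CreCtrl (adjusted p = 0.260), and Acly, which makes acetyl-CoA for lipid synthesis, had 138 and 215 CPM against 111 and 77.9 CPM (adjusted p = 0.33). In the lipid droplet and cholesterol transport list the median was -0.07 over 23 genes, and neither tool called a member. Fabp5, a fatty acid carrier, had 21.1 and 42.3 CPM against 7.51 and 15.8 CPM (adjusted p = 0.325), and Cd36, a fatty acid transporter and scavenger receptor, had 83.3 and 26.3 CPM against 12.1 and 29.4 CPM, so that its groups overlapped. For Fdps and Fabp5, which share 15.5% and 5.48% of their words, Ctrl replicate 2 was the highest of the 4 libraries compared, which is also the library with most surface epithelium transcripts; the part of those cells was not tested. The 29 PPAR targets and fatty acid oxidation genes had a median of -0.04, with Hadhb, a subunit of the mitochondrial trifunctional protein that shares 19.7% of its words, and the nuclear receptor Rxra at the lowest p; edgeR called 0 of them and DESeq2 called 1 higher.

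Epithelial junctions had a median of -0.46 over 26 genes. Of these, 8 were lower and 0 higher at an unadjusted p under 0.05, where 7.24% of all genes were lower. EdgeR called 0 and DESeq2 called 4 lower. The median was -0.22 without Ctrl replicate 2 and -0.82 without Ctrl replicate 1. The surface epithelium markers, at 2143 and 11938 CPM in Ctrl against 41.1 and 0.468 CPM in CreCtrl, moved with this list, and their part in it was not tested. Besides Cldn4, F11r, or junctional adhesion molecule A, had 31.95 and 75.3 CPM in Ctrl against 12.0 and 13.6 CPM in CreCtrl (adjusted p = 0.148). The 22 genes of epithelial to mesenchymal transition had a median of -0.35, which was -0.16 without Ctrl replicate 2, with 0 called by edgeR and 1 higher and 2 lower by DESeq2. The lowest p was that of Tgfb2, a growth factor of the TGF-beta family, at 55.5 and 67.2 CPM against 22.9 and 16.6 CPM (log2 fold change -1.63, standard error 0.26, adjusted p = 0.102). Basement membrane and matrix had a median of -0.04 over 30 genes, with 0 called by edgeR and 2 called lower by DESeq2. Efemp1, a matrix protein of the fibulin family whose human gene is mutated in an inherited macular drusen disease, had 137 and 177 CPM in Ctrl against 63.9 and 45.5 CPM in CreCtrl (log2 fold change -1.52, standard error 0.27, adjusted p = 0.124). Fbln1, another fibulin, had 431 and 175 CPM against 123 and 90.3 CPM. In contrast to the epithelial genes, Tgfb2 and Efemp1 differed little between the 2 Ctrl libraries.

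The remaining lists also held no gene called by edgeR. DESeq2 called 3 cell cycle and 2 clock genes lower, and 1 gene higher in each of the lysosome, autophagy and iron lists. Counts of genes that overlap another gene are uncertain, and the exon bases so shared were 34.6% for Ftl1, 32.6% for Atg9a, 29.02% for Tapbp, 26.7% for Fdps and 22.2% for Bnip3. Cell cycle genes had a median of -0.53 over 25 genes, which was -0.26 without Ctrl replicate 2. Of these genes, 6 were lower at an unadjusted p under 0.05, where 7.24% of all genes were. Among them were Ccnd2, a D-type cyclin (91.8 and 97.6 CPM in Ctrl against 40.4 and 49.0 CPM in CreCtrl, adjusted p = 0.139), and Bub1, a mitotic checkpoint kinase under 2 CPM in every library of the comparison. Clock genes had a median of -0.07 over 21 genes. Nr1d1, the repressor REV-ERB alpha, had 331 and 353 CPM against 194 and 220 CPM (adjusted p = 0.285), and Npas2, a partner of the clock activator, had 4.50 and 11.3 CPM against 0.945 and 1.34 CPM. Lysosome and cathepsin genes had a median of -0.29 over 32 genes. Ctsh, a cathepsin, had 77.7 and 68.8 CPM against 27.1 and 46.0 CPM (adjusted p = 0.272), while Cd63, a late endosome tetraspanin that shares 11.1% of its words, had 292 and 216 CPM against 582 and 435 CPM. Autophagy genes had a median of -0.15 over 26 genes (Gabarapl2, with 12.2% of shared words, and Atg9a at the lowest p), and iron handling had -0.24 over 12 genes, where Heph, a ferroxidase, had 67.0 and 111.6 CPM against 52.2 and 28.3 CPM.

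**Figure D5:**
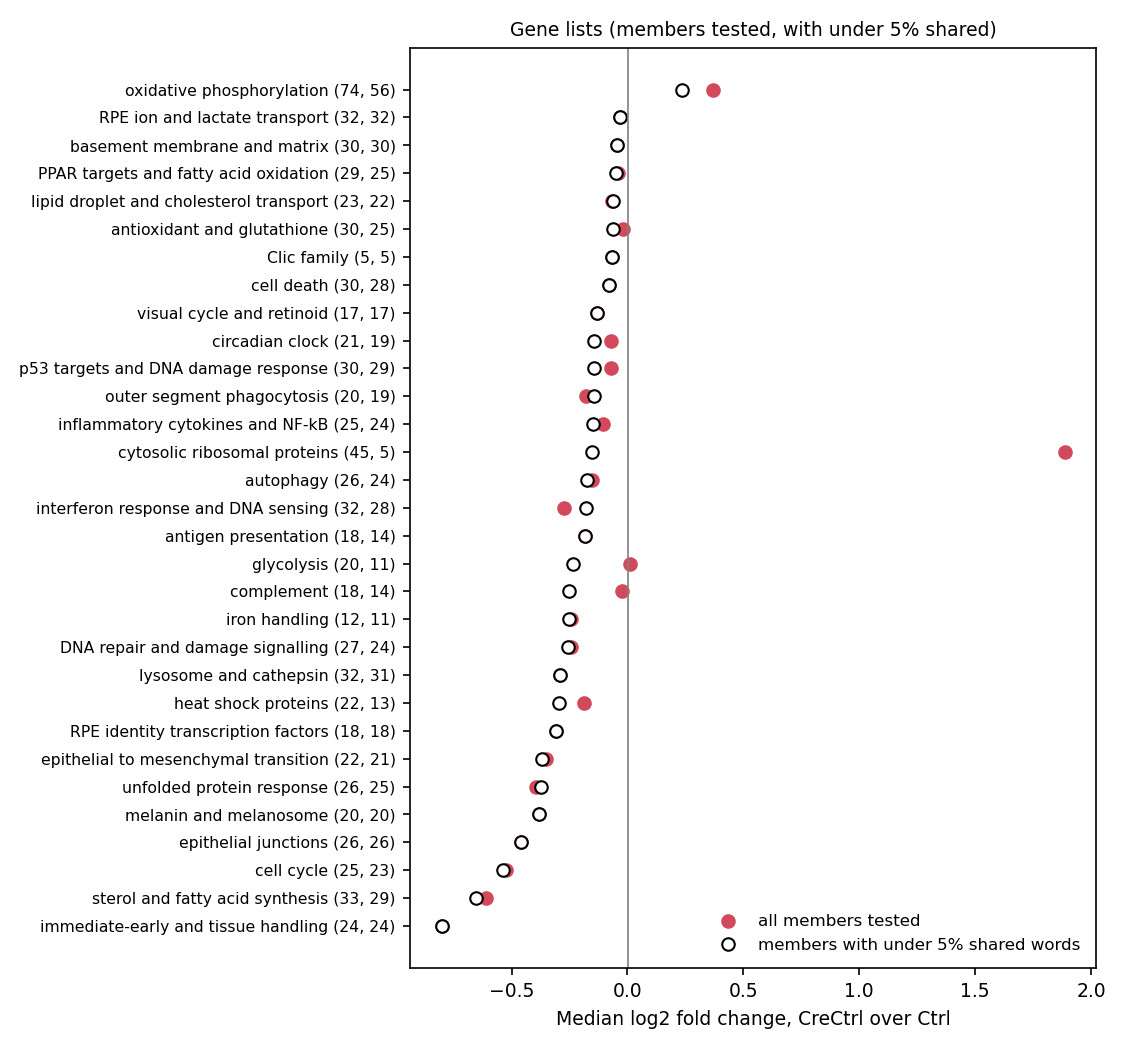
Median log2 fold change of CreCtrl over Ctrl in each process list, over all members tested (red) and over members with under 5% of shared words (open); the numbers in brackets are the members behind each, and the grey line is the median of all genes tested. Cytosolic ribosomal proteins move from 1.89 to -0.16, and immediate-early genes have the lowest median, -0.80.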

How the data were processed

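RPE cells of both eyes of each mouse were released from eyecups with trypsin, and poly(A) RNA was made into stranded libraries and sequenced in pairs of 50 cycles. The authors aligned reads to GRCm38 with STAR and deposited raw counts per Ensembl gene, with no normalization; the submitters' processing notes also name HTSeq. The strand setting, annotation release and treatment of reads that fit several loci are not given in the sources used here. Of 42687 genes, 42329 were named from GENCODE M21 (GRCm38).

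From the counts, CreCtrl was compared with Ctrl by edgeR's quasi-likelihood test over the 4 libraries, with filterByExpr, TMM factors and Benjamini-Hochberg adjustment. Standard errors are the log2 fold change divided by the square root of F. Genes named are Clic4, the 10 coding genes with the lowest p in each direction and at least 1 CPM in the higher group, and in each gene list up to 4 called members or, with none called, the 2 with the lowest p; marker genes, genes with few shared words and other genes were named after their values were seen. Results for some genes are not reported here. The members and lists were chosen with earlier results of these data known. Alternatives were DESeq2, 2 other scalings, 2 other filters, a fit of 7 controls, a replicate block and leaving out each library; fits on genes with few shared words and a crossed block were added after seeing the data. The tests were tried on simulated counts. Counting intervals cover counting error only. The mice are separate animals. Each p-value sets the difference between groups against the spread between mice of a group, estimated with information from other genes. Spread between sets is not part of it. Versions were R 4.3.3, edgeR 4.0.16, DESeq2 1.42.0 and Python 3.11.15.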

Additional observations from a re-analysis of the deposited data

How the results depend on the processing

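Under 11 planned and 4 added alternatives, none of 1532 refitted values of 109 named genes changed sign, 1173 kept their side of the threshold, 340 crossed it towards a call and 19 lost a call. Most of these genes were picked by a low p in the main fit, and the refits reuse its libraries. Their kept signs were therefore largely set by that choice. Some list medians, such as that of the rod markers, did change sign when 1 library was left out. The number of genes called in the main fit was 68 (66 higher and 2 lower). DESeq2 called 869 (332 and 537), and keeping all genes with at least 1 count gave 1662 (568 and 1094). With at least 10 counts in each library 4 genes were lower, with RLE scaling 1, and the fit of the 7 control libraries gave 141 (122 and 19). The cause of these differences was not tested. Leaving out 1 library gave 33 to 2199 calls, 28 to 838 of them higher and 2 to 1361 lower. Fits on genes with under 5% or with no shared words, which leave out most called genes, gave 0 calls (0 higher, 0 lower). The share of calls that were higher was 97.1%, against 38.2% with DESeq2. The Clic4 log2 fold change stayed between 0.40 and 0.71, with adjusted p from 0.136 to 0.999.

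Replicate numbers pair no animals: the deviations of same-numbered libraries from their group means correlated at -0.300, and a replicate block gave 64 calls with 13 lower. The crossed replicate block, fitted because this correlation was negative, gave 759 calls (315 higher and 444 lower). That pairing was chosen from the same counts and takes up spread between the mice of a group. Its larger number of calls is therefore no separate support for them. With 2 mice a group, differences within the spread of replicates were not detectable at this depth.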
